A study of Mus musculus with 16 samples.

Results

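The osmotic stress genes *Nfat5*, *Akr1b3*, *Slc5a3*, *Slc6a6*, *Slc6a12*, *Slc38a2* and *Sgk1* were examined in primary mouse hepatocytes given itaconate, lipid or both. They were picked out of the count table by gene symbol and make up 7 of the 55450 genes quantified. These genes, and the lists compared below, were chosen with earlier results of these data known. Their counts beside the shares of all genes are therefore descriptions only. RNA was sequenced in bulk from hepatocytes isolated from livers of wild-type mice and cultured overnight in DMEM with fetal bovine serum and insulin-transferrin-selenium, which all groups shared. Untreated hepatocytes received nothing more, itaconate-treated hepatocytes received 10 mM sodium itaconate, lipid-treated hepatocytes received a chemically defined mixture of fatty acids and cholesterol diluted 10-fold, and lipid + itaconate-treated hepatocytes received both. Each of the 4 groups had 4 libraries, named by the replicate letters A to D. The labels do not say that the letters are separate animals or cultures, so the p values measure the spread between these libraries, which may be technical. No group received another sodium salt, so that effects of itaconate and of its sodium or osmotic load cannot be told apart. No vehicle for the lipid mixture is named either. Effects of the lipids and of the liquid added with them, which dilutes the medium, can therefore not be told apart.

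Cells in a hypertonic medium lose water, take up ions and then replace these with organic osmolytes, small neutral solutes that do not disturb proteins. The transcription factor NFAT5, a member of the Rel family, drives this response by inducing the enzyme and the transporters that accumulate sorbitol, myo-inositol, taurine and betaine. In hepatocytes, cell volume also shifts with hormones and with the uptake of amino acids, and the liver itself makes taurine and oxidizes choline to betaine.

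All 7 genes passed the filter of a mean of 1 CPM (a count adjusted for the depth of its library) that left 11675 genes to test. Changes are log2 fold changes from 1 edgeR quasi-likelihood model of all 16 libraries with the treatment and the letter as terms, and a gene was called at an adjusted p (Benjamini-Hochberg over all genes tested) under 0.05. With itaconate, *Slc38a2* and *Slc5a3* rose, by 0.27 and 0.32 on the log2 scale, and with lipid present *Slc38a2* rose by 0.19. With lipid in untreated cells 5 of the 7 were called, where 47.5% of all genes tested were called, against 4.91% with itaconate. *Slc38a2*, *Slc6a6* and *Sgk1* fell while *Slc6a12* and *Slc5a3* rose. The call of *Sgk1* held in 8 of 15 alternative fits. *Akr1b3* was called in none of the 5 comparisons.

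Library totals ran from 22346049 to 35512004 expected counts. All 8 hepatocyte markers examined were at 1 CPM or more, with a summed level of 42609 to 57027 CPM in untreated libraries, 42787 to 57522 CPM with itaconate, 37514 to 48546 CPM with lipid and 33529 to 53296 CPM with both, and 3 of the 8 were called with lipid and 0 with itaconate. The 8 macrophage markers (6 at 1 CPM or more, none at 0 in all libraries) summed to 176 to 282 CPM in untreated libraries, 152 to 236 CPM with itaconate, 227 to 321 CPM with lipid and 211 to 314 CPM with both. The 6 cholangiocyte markers (2 at 1 CPM or more, 1 at 0 in all 16 libraries) summed to 600 to 1171 CPM in untreated libraries, 573 to 1048 CPM with itaconate, 336 to 609 CPM with lipid and 356 to 646 CPM with both. The 8 stellate cell markers (1 at 1 CPM or more) summed to 16.3 to 25.6 CPM and the 6 endothelial markers (5 at 1 CPM or more) to 11.2 to 22.6 CPM over all libraries. With lipid 4 macrophage, 2 cholangiocyte, 2 endothelial and 0 stellate cell markers were called. With itaconate 1 macrophage marker was called and 0 of the cholangiocyte, endothelial or stellate cell markers. The part of these markers in the results below was not tested. In bulk RNA, fewer cells of a type and less RNA per cell cannot be told apart. Lipid + itaconate replicate B differed most from the other libraries of its group, with a chi-square per gene of 106 to 147, against at most 64.5 for any other pair, and results that change without it are given below.

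In untreated hepatocytes the genes differed widely in level per length. *Slc38a2* stood highest at 27.4 CPM per kb of exon, followed by *Slc6a6* at 22.1 and *Slc6a12* at 11.2 CPM per kb. *Nfat5* (3.41 CPM per kb) and *Slc5a3* (3.06 CPM per kb) stood lower. *Sgk1* (1.22 CPM per kb) and *Akr1b3* (0.803 CPM per kb) were lowest, at the percentiles 16.7 and 11.4 of all genes tested, whereas *Slc38a2* was at the percentile 85.0. By this measure, which divides by all annotated exon bases, the taurine and amino acid transporters were well expressed in these cultures and aldose reductase was scarce.

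The promoter sequences of 5 of the genes were taken from RefSeq (GRCm38.p6), as the 250 bases before each start site. *Akr1b3* and *Slc6a6* were not matched. The windows were searched for TGGAAA, the core that NFAT5 binds, and for TTTCCA, the same letters on the other strand. The core was present in 18.6% of the 32851 windows of all genes. It lay in the first window of *Slc6a12*, 75 bases before the start, in 2 windows of *Sgk1*, and in no window of *Nfat5*, *Slc38a2* or *Slc5a3*. *Slc6a12* and *Sgk1* had several start sites, and so more windows to search than the other genes. The genes can therefore not be compared by the presence of the core. A match describes letters only and is not a measured binding site. The windows of *Slc38a2* and *Slc5a3* were rich in CpG (30 and 32 CpG, against a median of 6 over all windows). The first window of *Slc6a12* held 2 and its other windows at most 5. The 3 windows below are shown because *Slc38a2* fell with lipid while *Slc5a3* and *Slc6a12* rose. A further reason is that *Slc5a3* starts beside *Mrps6*, with which it shares reads. They are printed 5′ to 3′ on the strand of the gene, only up to the first annotated start, with the core in capitals. The *Slc38a2* sequence is chr15:96699731-96699978 (minus strand), that of *Slc5a3* and *Mrps6* is chr16:92058072-92058269 (plus strand), and that of *Slc6a12* is chr6:121342324-121342573 (plus strand).
Slc38a2: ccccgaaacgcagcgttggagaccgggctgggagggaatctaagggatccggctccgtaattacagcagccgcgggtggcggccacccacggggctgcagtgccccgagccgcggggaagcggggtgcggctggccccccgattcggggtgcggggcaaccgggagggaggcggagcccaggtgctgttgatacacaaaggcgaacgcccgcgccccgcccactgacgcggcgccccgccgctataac
Slc5a3: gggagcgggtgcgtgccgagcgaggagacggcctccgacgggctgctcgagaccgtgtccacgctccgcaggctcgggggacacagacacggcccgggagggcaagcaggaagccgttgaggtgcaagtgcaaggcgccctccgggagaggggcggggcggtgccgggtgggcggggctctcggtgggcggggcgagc
Slc6a12: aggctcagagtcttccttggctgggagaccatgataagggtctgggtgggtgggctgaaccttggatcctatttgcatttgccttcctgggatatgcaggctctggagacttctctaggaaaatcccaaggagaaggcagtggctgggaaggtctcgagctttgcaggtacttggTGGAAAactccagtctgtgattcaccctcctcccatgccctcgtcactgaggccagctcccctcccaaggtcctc

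*Nfat5* (ENSMUSG00000003847.16, chr8:107293470-107379517 in GRCm38, plus strand) encodes the regulator of the response. In replicates A, B, C and D its level was 53.5, 68.0, 65.7 and 63.0 CPM in untreated hepatocytes and 68.6, 61.1, 78.3 and 64.5 CPM in itaconate-treated hepatocytes. It was 49.8, 47.1, 57.4 and 58.1 CPM with lipid and 41.8, 39.8, 68.2 and 59.8 CPM with lipid + itaconate. The groups overlapped in each comparison, and with both agents replicates A and B were low and C and D were high. Itaconate changed *Nfat5* by 0.12 ± 0.10 (log2, standard error, edgeR adjusted p = 0.539, higher in 3 of 4 letters) without lipid. With lipid present the difference was −0.04 ± 0.10 (adjusted p = 0.890), and it was negative in A and B and positive in C and D. With lipid the level was lower in 4 of 4 letters, by a difference that was not called in untreated cells (−0.24 ± 0.10, adjusted p = 0.0645), while in itaconate-treated cells *Nfat5* fell by 0.40 ± 0.10 (adjusted p = 0.0052). The fall was 0.31 without lipid + itaconate replicate B (adjusted p = 0.0199). In untreated cells the difference was called by DESeq2 (adjusted p = 0.0368), and over all alternatives its adjusted p ran from 0.0006 to 0.326. These values are of mRNA, and the NFAT5 protein is also regulated after transcription.

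*Akr1b3* (ENSMUSG00000001642.18, chr6:34302434-34317478, minus strand) encodes aldose reductase, which reduces glucose to the osmolyte sorbitol. Its level lay between 5.43 and 8.77 CPM over the 16 libraries, on 133 to 250 expected counts, at which counting error alone is 8.67 to 6.33%. Group means (± SD, n = 4) were 6.73 ± 0.95 CPM for untreated and 6.70 ± 0.40 CPM for itaconate-treated cells, and 6.89 ± 1.41 CPM for lipid and 6.25 ± 0.35 CPM for lipid + itaconate. All 4 groups overlapped. The itaconate difference was −0.01 with a 95% interval of −0.28 to 0.27, and the lipid difference was 0.03 with an interval of −0.25 to 0.30, so that changes within these intervals were not resolved. Expected counts were not whole in 16 of 16 libraries, which means that some reads also fitted other genes. The related genes *Akr1b7* (1.60 ± 0.66 CPM, SD, n = 4, in untreated cells) and *Akr1b8* (2.43 ± 0.49 CPM) were lower in CPM and were called in no comparison. Per kb of exon they were higher, at 1.25 and 1.62 CPM, against 0.803 CPM for *Akr1b3*. The annotated exons of *Akr1b3* are longer, 8384 bases against 1281 and 1499, so its level per kb depends on the annotation. How the shared reads were split is uncertain.

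*Slc5a3* (ENSMUSG00000089774.2, chr16:92058322-92087473, plus strand) encodes the sodium-coupled transporter of myo-inositol. In replicates A to D its level was 26.1, 33.6, 38.8 and 35.3 CPM in untreated and 33.0, 39.7, 50.3 and 44.3 CPM in itaconate-treated hepatocytes. With lipid it was 31.9, 37.5, 46.1 and 43.2 CPM, and with lipid + itaconate 36.5, 37.4, 45.0 and 49.5 CPM. The ranges overlapped, since replicate A was low and C and D were high in every group, but within each letter the untreated library was the lowest of the 4. Itaconate raised *Slc5a3* by 0.32 ± 0.06 (edgeR adjusted p = 0.0055, higher in 4 of 4 letters), an increase of 1.25-fold. With lipid present the itaconate difference was 0.09 ± 0.06 (adjusted p = 0.426, higher in 2 of 4 letters). Lipid raised the gene by 0.24 ± 0.06 in untreated cells (adjusted p = 0.0027, 4 of 4 letters), and the difference was 0.02 ± 0.06 in itaconate-treated cells (adjusted p = 0.825). Both calls, but not the size of the rises, rest on the letter as a term. Without it the differences were 0.32 and 0.24, and the adjusted p values were 0.365 for itaconate and 0.206 for lipid, the highest over all alternatives, of which the lowest were 5.9e-05 and 0.00086. The interaction, the itaconate difference with lipid minus that without, was −0.23 ± 0.08 and negative in 4 of 4 letters (unadjusted p = 0.0126, adjusted p = 0.444), so a difference between the 2 itaconate effects was not called.

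The first exon of *Slc5a3* is also used by *Mrps6*, a gene of the mitochondrial ribosome that starts beside it on the same strand, and 159 exon bases (1.46% of those of *Slc5a3*) belong to both. Expected counts of *Slc5a3* were not whole in 16 of 16 libraries. *Mrps6* stood at 15.9 ± 1.27 CPM (SD, n = 4) without and 13.7 ± 1.85 CPM with itaconate, a difference of −0.22 ± 0.08 (adjusted p = 0.134, lower in 4 of 4 letters), so the estimates of the 2 genes had opposite signs. With lipid *Mrps6* rose by 0.23 ± 0.08 (adjusted p = 0.0299), as *Slc5a3* did. When the counts of both genes were summed, the itaconate difference was 0.17 and was no longer called (adjusted p = 0.0828), while the rise with lipid was 0.24 (adjusted p = 0.0016). The itaconate call was thus made for *Slc5a3* alone and not for the 2 genes together.

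*Slc6a6* (ENSMUSG00000030096.8, chr6:91684053-91759066, plus strand) encodes the taurine transporter. In replicates A to D its level was 170, 174, 191 and 213 CPM in untreated and 177, 182, 219 and 211 CPM in itaconate-treated hepatocytes. It was 127, 132, 162 and 169 CPM with lipid and 148, 144, 177 and 167 CPM with lipid + itaconate. Each lipid-treated library lay below each untreated library, and each lipid + itaconate-treated library below each itaconate-treated one. The gaps were narrow, at 168.9 against 169.9 CPM and 177.2 against 177.3 CPM. *Slc6a6* fell by 0.35 ± 0.04 with lipid (edgeR adjusted p = 1.6e-05) and by 0.31 ± 0.04 with lipid in the presence of itaconate (adjusted p = 5.2e-05). Both falls were present in 4 of 4 letters. They reached the smallest p that an exact permutation test of 4 against 4 libraries allows, 0.0286, in a test that ignores the letters. The itaconate differences were 0.08 ± 0.04 without lipid (adjusted p = 0.319) and 0.12 ± 0.04 with lipid (adjusted p = 0.182), neither of them called.

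*Slc6a12* (ENSMUSG00000030109.15, chr6:121343076-121365775, plus strand) encodes the betaine transporter, which also carries GABA. In replicates A to D its level was 38.9, 34.1, 34.5 and 29.2 CPM in untreated and 36.01, 36.7, 34.9 and 31.1 CPM in itaconate-treated hepatocytes. It was 38.5, 39.9, 42.0 and 38.6 CPM with lipid and 44.9, 43.4, 37.4 and 37.0 CPM with lipid + itaconate. Apart from untreated replicate A, every library without lipid lay below every library with lipid. Lipid raised *Slc6a12* by 0.23 ± 0.06 in untreated cells (edgeR adjusted p = 0.0070, higher in 3 of 4 letters) and by 0.23 ± 0.06 in itaconate-treated cells (adjusted p = 0.0064, 4 of 4 letters, groups not overlapping). The first of these was just short of the threshold without the letter as a term (adjusted p = 0.0514, the highest of its alternatives, with 0.0016 as the lowest). The itaconate differences were 0.03 ± 0.06 both without lipid (95% interval −0.11 to 0.16) and with it (−0.10 to 0.16). The neighbouring gene *Slc6a13*, which encodes a related GABA and taurine transporter, was at 64.0 ± 3.76 CPM (SD, n = 4) in untreated cells and was called in no comparison.

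*Slc38a2* (ENSMUSG00000022462.7, chr15:96687392-96699730, minus strand) encodes SNAT2, a system A transporter that takes up small neutral amino acids with sodium and is induced by hypertonic medium and by amino acid shortage. In replicates A to D its level was 213, 227, 255 and 274 CPM in untreated and 264, 257, 328 and 316 CPM in itaconate-treated hepatocytes. It was 150, 157, 193 and 193 CPM with lipid and 178, 184, 213 and 216 CPM with lipid + itaconate. Replicates C and D were above A and B in each group, and within each letter the 4 treatments stood in 1 order, lipid lowest, then lipid + itaconate, untreated and itaconate. Itaconate raised *Slc38a2* by 0.27 ± 0.04 (edgeR adjusted p = 0.0011, 4 of 4 letters), or 1.20-fold, and in lipid-treated cells by 0.19 ± 0.04 (adjusted p = 0.0193, 4 of 4 letters), or 1.14-fold. Lipid lowered it by 0.49 ± 0.04 (adjusted p = 1.6e-07), to 0.714-fold, and in itaconate-treated cells by 0.56 ± 0.04 (adjusted p = 7.2e-08). In both lipid comparisons the groups did not overlap (exact permutation p = 0.0286, the smallest possible, with the letters ignored).

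The itaconate groups did overlap, because the letters differed by more than the itaconate effect. Without the letter as a term the itaconate differences of *Slc38a2* were 0.27 without and 0.19 with lipid and had an adjusted p of 0.298 without lipid and 0.595 with lipid, the highest of all alternatives, where the lowest were 9.2e-09 and 0.00053. The call with lipid present was also lost when only its 8 libraries were fitted (adjusted p = 0.220) and when lipid replicate A (0.0647), lipid replicate D (0.0554), lipid + itaconate replicate A (0.0765) or lipid + itaconate replicate B (0.0557) was left out, with the log2 difference staying between 0.18 and 0.21. The interaction was −0.07 ± 0.05 (adjusted p = 0.759), with a 95% interval of −0.19 to 0.04.

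*Sgk1* (ENSMUSG00000019970.15, chr10:21882184-21999903, plus strand) encodes a kinase that is induced by cell shrinkage, glucocorticoids and insulin signalling and that acts on ion channels and transporters. Its level was 6.37, 6.25, 6.21 and 5.07 CPM in replicates A to D of untreated and 8.41, 7.72, 7.15 and 5.71 CPM in those of itaconate-treated hepatocytes. It was 4.22, 5.12, 4.82 and 3.54 CPM with lipid and 4.90, 6.01, 3.01 and 4.65 CPM with lipid + itaconate. These values rest on 89 to 232 counts per library, at which counting error alone is 10.6 to 6.57%. Replicate D was the lowest library of every group except lipid + itaconate, where replicate C was. Lipid lowered *Sgk1* by 0.44 ± 0.15 in untreated cells (edgeR adjusted p = 0.0266) and by 0.65 ± 0.15 in itaconate-treated cells (adjusted p = 0.0021), in 4 of 4 letters each. The first call was lost without the letter as a term (adjusted p = 0.0740) and on leaving out any of untreated A (0.0551), C (0.0950) or D (0.0532) or lipid A (0.0841), B (0.0509) or D (0.0751), and its adjusted p was 0.0071 at the lowest over all alternatives. The itaconate difference was 0.27 ± 0.14 without lipid, higher in 4 of 4 letters and not called (adjusted p = 0.292), and 0.06 ± 0.15 with lipid (adjusted p = 0.879), where replicate C went the other way.

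**Figure D1:**
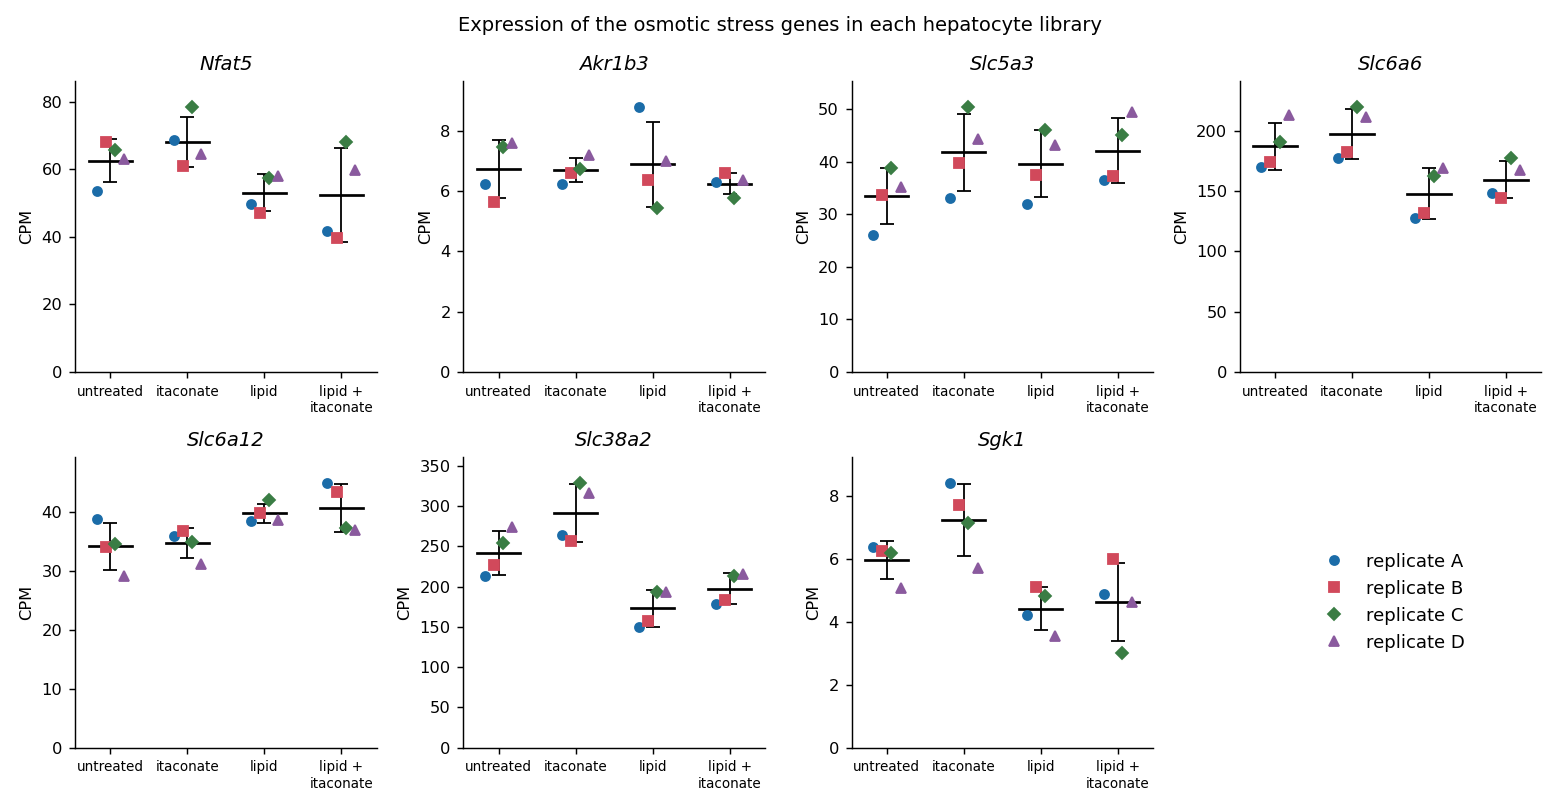
Level of each gene in CPM (y axis, from 0) in the 16 libraries by treatment (x axis), with 1 symbol per replicate letter, the group mean as a bar and the SD over 4 libraries as whiskers. *Slc38a2* and *Slc6a6* sit lower in both lipid groups with no overlap against the matching group without lipid, for *Slc6a6* by narrow gaps. Replicates C and D lie above A and B for *Slc38a2* in every group.

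Seen by comparison, itaconate against untreated cells called 2 of the 7 genes, both higher. In that comparison 4.91% of all genes tested were called and 1.96% were called higher. The median log2 change of the 7 genes was 0.12, against 0.00 over all genes. In lipid + itaconate-treated against lipid-treated cells 1 of 7 was called, higher, with 2.58% of all genes called and 1.32% called higher, and the medians were 0.06 and 0.00. Lipid against untreated cells called 5 of 7, where 47.5% of all genes were called. Of the 5, 2 were higher and 3 lower, against 23.8% of all genes called higher and 23.7% lower, and the median of the 7 was −0.24. Lipid + itaconate-treated against itaconate-treated cells called 5 of 7, with 47.0% of all genes called, and 1 was higher and 4 were lower, with 23.5% of all genes called in each direction and a median of −0.31. Against a background of this size, 5 of 7 is not a result about these genes as a set. Ranked by their means, the groups stood in the order lipid, lipid + itaconate, untreated and itaconate for *Slc38a2*, *Slc6a6* and *Sgk1*. Of the neighbouring groups in the orders of all 7 genes the libraries were apart only between itaconate and lipid for *Slc6a12*. The share of all genes tested whose groups were apart was not counted, here or for the single genes above. Groups that are apart are therefore not a result about these genes. The 4 comparisons share libraries in pairs, so that the itaconate and the lipid comparisons are not independent.

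**Figure D2:**
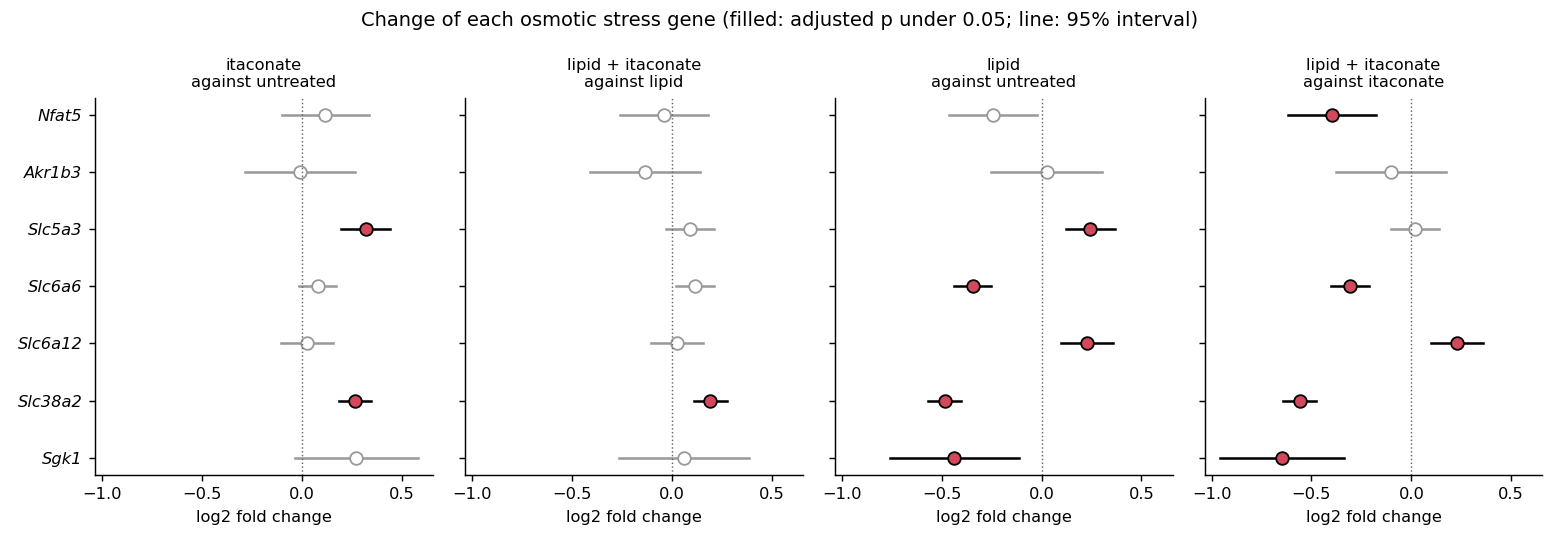
Log2 fold change (x axis) of each gene in 4 comparisons, with its 95% interval as a line and filled points where the adjusted p was under 0.05. The lipid changes run from −0.65 for *Sgk1* to 0.24 for *Slc5a3*, and the itaconate changes from −0.13 for *Akr1b3* to 0.32 for *Slc5a3*.

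The interaction asked whether itaconate acted differently with and without lipid. By edgeR 0 of the 7 genes were called, 1 of 7 (*Slc5a3*) had an unadjusted p under 0.05, and 0 were called by DESeq2 or limma-voom. Among all genes 1 was called (0.00857%). For *Sgk1* the interaction ran from −0.88 in replicate C to 0.22 in replicate D, and the itaconate difference in C was 0.20 without and −0.68 with lipid. For *Akr1b3* it ran from −0.48 to 0.23 and for *Nfat5* from −0.61 to 0.01 over the letters.

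**Figure D3:**
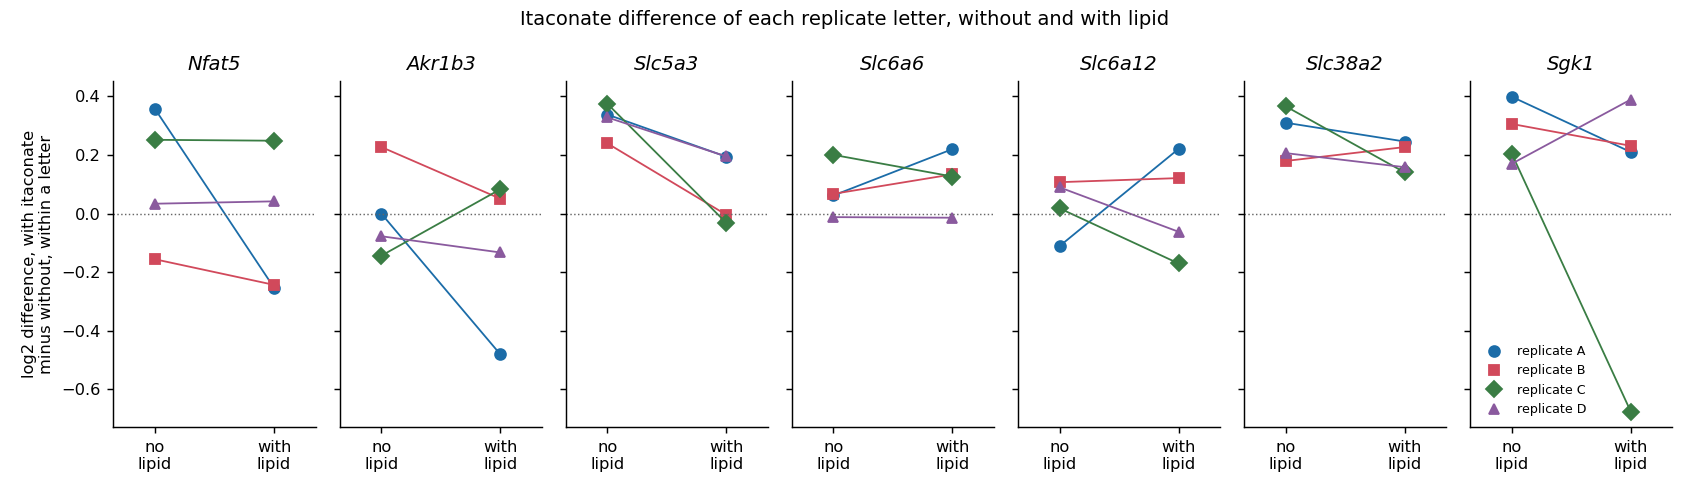
Log2 difference in CPM between the itaconate library and its partner of the same letter (y axis), without and with lipid (x axis), with 1 line per letter. The 4 lines of *Slc5a3* all descend and the 8 points of *Slc38a2* all lie above 0, while those of *Nfat5* and *Akr1b3* lie on both sides of 0.

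The genes differed in how far treatment and letter accounted for their variation. For *Slc38a2*, 78.8% of the sum of squares of log2 CPM over the 16 libraries lay between treatments, 20.2% between letters and 0.964% in the rest. For *Slc5a3* the letter held the larger share, 63.8%, against 29.9% for treatment. For *Akr1b3* 75.2% was left in the rest. The medians over all genes tested were 46.9% for treatment, 20.6% for letter and 23.3% for the rest. The letter means over the 4 treatments show the same: *Slc38a2* averaged 201 and 206 CPM in A and B and 247 and 250 CPM in C and D, whereas *Sgk1* averaged 5.98 and 6.27 CPM in A and B and 5.30 and 4.74 CPM in C and D.

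**Figure D4:**
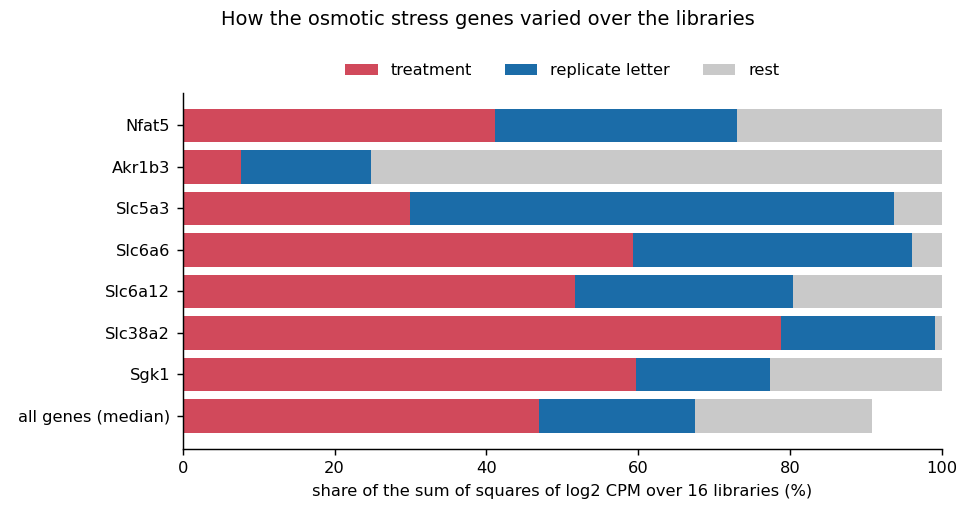
Share of the sum of squares of log2 CPM over 16 libraries (x axis, percent) between treatments, between replicate letters and in the rest, for each gene and as the median of each share over all genes tested, which need not add up to 100. Treatment takes 78.8% for *Slc38a2* and 7.65% for *Akr1b3*.

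Across the 16 libraries, after removal of the letter means, the log2 levels of *Slc6a6* and *Slc38a2* had a Pearson correlation of 0.97, and those of *Slc38a2* and *Sgk1* one of 0.84. *Slc6a12* ran the other way, at −0.73 with *Slc6a6*, −0.72 with *Slc38a2* and −0.78 with *Nfat5*. *Akr1b3* correlated with none of the others beyond 0.31 in size. These values describe libraries that share 4 treatments, and many of the genes tested were called with lipid. By the same measure, the gene closest to *Slc38a2* was *Fnip1* (0.99), that closest to *Slc6a6* was *Atp11b* (0.99), and that closest to *Sgk1* was *Sds* (0.97), the serine dehydratase of amino acid breakdown. *Slc5a3* was closest to *Zfp334* (0.93), *Slc6a12* to *Col12a1* (0.96), *Nfat5* to *Prpf4b* (0.97) and *Akr1b3* to *Acot2* (0.87).

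Genes that make and break down organic osmolytes were compared as a list. Of 18 genes, 16 passed the filter. With lipid 4 rose and 7 fell (median −0.21), which is 68.8% of the list called against 47.5% of all genes tested, of which 23.8% rose and 23.7% fell. The list counts with lipid that follow stand against the same shares. *Gdpd1* (0.92), a lysophospholipase D, and *Impa2* (0.84), which releases free myo-inositol, rose, and *Chdh* (−0.64) and *Bhmt* (−0.49), the enzymes that make and use betaine, fell. In itaconate-treated cells lipid raised 5 and lowered 9 of them (87.5%, against 47.0% of all genes), with *Impa2* at 1.00, *Gdpd1* at 0.76, *Chdh* at −0.79 and *Bhmt* at −0.62. The 3 enzymes of taurine synthesis in the list did not share a direction with lipid: *Csad* fell by 0.31 (adjusted p = 0.0240), *Ado* rose by 0.23 (adjusted p = 0.0026) and *Cdo1* was not called (−0.17, adjusted p = 0.0624). With itaconate 0 of 16 were called by edgeR without lipid (6 at an unadjusted p under 0.05, 1 called by DESeq2, 0 by limma-voom) and 0 of 16 with lipid (2, 0 and 0).

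Among other transporters of osmolytes and amino acids, 10 of 13 genes passed the filter. With lipid 4 rose and 1 fell (50% of the list, 47.5% of all genes): *Slc6a8*, the creatine transporter (0.57), *Slc7a1*, a carrier of cationic amino acids (0.49), and *Slc3a2*, the heavy chain of several exchangers (0.29), rose with *Slc6a9*, while *Slc38a4*, the other system A transporter of hepatocytes, fell by 0.36. With lipid in itaconate-treated cells 2 rose and 2 fell (40% of the list, 47.0% of all genes). With itaconate *Slc6a8* was called, where it fell by 0.23 (adjusted p = 0.0360), and in lipid-treated cells 0 of 10 were called by edgeR (3 at an unadjusted p under 0.05, 1 by DESeq2, 0 by limma-voom).

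*Slc38a2* is also a target of ATF4, the factor of the amino acid response, and 10 other genes of that response were compared. With lipid 4 rose and 0 fell (40% called, 47.5% of all genes), *Chac1* by 0.74, *Asns* by 0.52, *Trib3* by 0.39 and *Sesn2* by 0.20, while *Slc38a2* fell. With lipid in itaconate-treated cells 3 rose (*Asns* by 0.31, *Trib3* by 0.23 and *Sesn2* by 0.22), *Atf3* fell by 0.46, and *Chac1* was not called (0.27, adjusted p = 0.114). These calls make up 40% of the list, against 47.0% of all genes. With itaconate 1 fell, *Slc7a11* by 0.26, and in lipid-treated cells *Asns* fell by 0.37 (adjusted p = 0.0429), while *Slc38a2* rose. The median of the 10 genes was 0.06 with itaconate, −0.17 with itaconate in lipid-treated cells, 0.19 with lipid and 0.04 with lipid in itaconate-treated cells.

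Of 18 genes of NFAT5 signalling, its heat shock targets and the Rel family, 14 passed the filter. With lipid 5 rose and 3 fell (57.1%, against 47.5% of all genes). *Hspa1b* (1.47) and *Hspa1a* (1.33), the inducible HSP70 chaperones, and *Hspa4l* (0.43), the osmotic stress protein of the HSP110 family, rose. *Fyn* (1.45), a kinase, rose from a low level of 1.85 CPM in untreated cells. *Rac1* (−0.43) and *Ccm2* (−0.33), the GTPase and scaffold upstream of p38, fell. With lipid in itaconate-treated cells 5 rose and 4 fell (64.3%, against 47.0% of all genes). With itaconate 0 of 14 were called by edgeR without lipid (0 at an unadjusted p under 0.05, 0 by DESeq2 or limma-voom) and 0 of 14 with lipid (3, 0 and 0). The HSP70 genes are near-identical, so the division of reads between them is uncertain.

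Of 23 genes of ion transport and cell volume, 19 passed the filter. With lipid 6 rose and 4 fell, a share of 52.6% that is close to the 47.5% of all genes. *Stk39* (0.95), the kinase that activates chloride-coupled cotransport, rose from a low level of 2.81 CPM in untreated cells. *Aqp8* (0.38), a water channel, also rose. *Slc12a2*, the sodium-potassium-chloride cotransporter that brings ions into shrunken cells, fell by 0.27. Subunits of the volume-regulated anion channel went both ways. *Lrrc8e* (0.77) and *Lrrc8b* (0.49) rose, from low levels of 2.56 and 2.52 CPM in untreated cells. *Lrrc8d*, at 138 CPM in untreated cells, fell by 0.27 (adjusted p = 0.00042), and *Lrrc8a*, at 67.1 CPM, was not called (−0.12, adjusted p = 0.0573). With lipid in itaconate-treated cells 3 of the 19 rose and 2 fell (26.3%, against 47.0% of all genes). With itaconate only *Aqp8* was called, with a rise of 0.40 (adjusted p = 0.0250), and in lipid-treated cells *Oxsr1*, a kinase related to *Stk39*, rose by 0.17 (adjusted p = 0.0439).

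All 9 genes of a list of the SGK family, SGK1 substrates and regulators upstream of SGK1 (*Pdpk1*, *Rictor* and *Mapkap1*) passed the filter. With lipid 2 rose and 6 fell (88.9%, against 47.5% of all genes). The 2 that rose were *Sgk3* (0.18, adjusted p = 0.0246) and *Mapkap1* (0.13, adjusted p = 0.04999). Among those that fell were *Nedd4l* (−0.68), the ubiquitin ligase that SGK1 phosphorylates, *Sgk2* (−0.67), *Ndrg1* (−0.53) and *Foxo3* (−0.23). The upstream genes *Pdpk1* (−0.21) and *Rictor* (−0.20) also fell. In itaconate-treated cells 2 rose and 7 fell, against 47.0% of all genes called. With itaconate, *Ndrg1* was called in lipid-treated cells, with a rise of 0.31 (adjusted p = 0.0329), and 0 of 9 were called without lipid (3 at an unadjusted p under 0.05, 1 by DESeq2, 0 by limma-voom). A list of 9 genes held glucocorticoid-induced genes and *Nr3c1*, which encodes the receptor and is not counted as an induced gene. Of these 9, 2 rose with lipid (*Zbtb16* by 0.76, *Tsc22d3* by 0.48) and 2 fell (*Pck1* by 0.61, *Nr3c1* by 0.33). Of the 4 TSC22 genes, *Tsc22d3*, which is also in the list before, rose and *Tsc22d1* fell by 0.54. Of 10 aldo-keto reductases other than *Akr1b3*, 9 passed the filter and 4 fell with lipid, *Akr1c13* by 0.57, *Akr1d1* by 0.53, *Akr1c14* by 0.42 and *Akr1a1* by 0.24, and 0 rose.

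**Figure D5:**
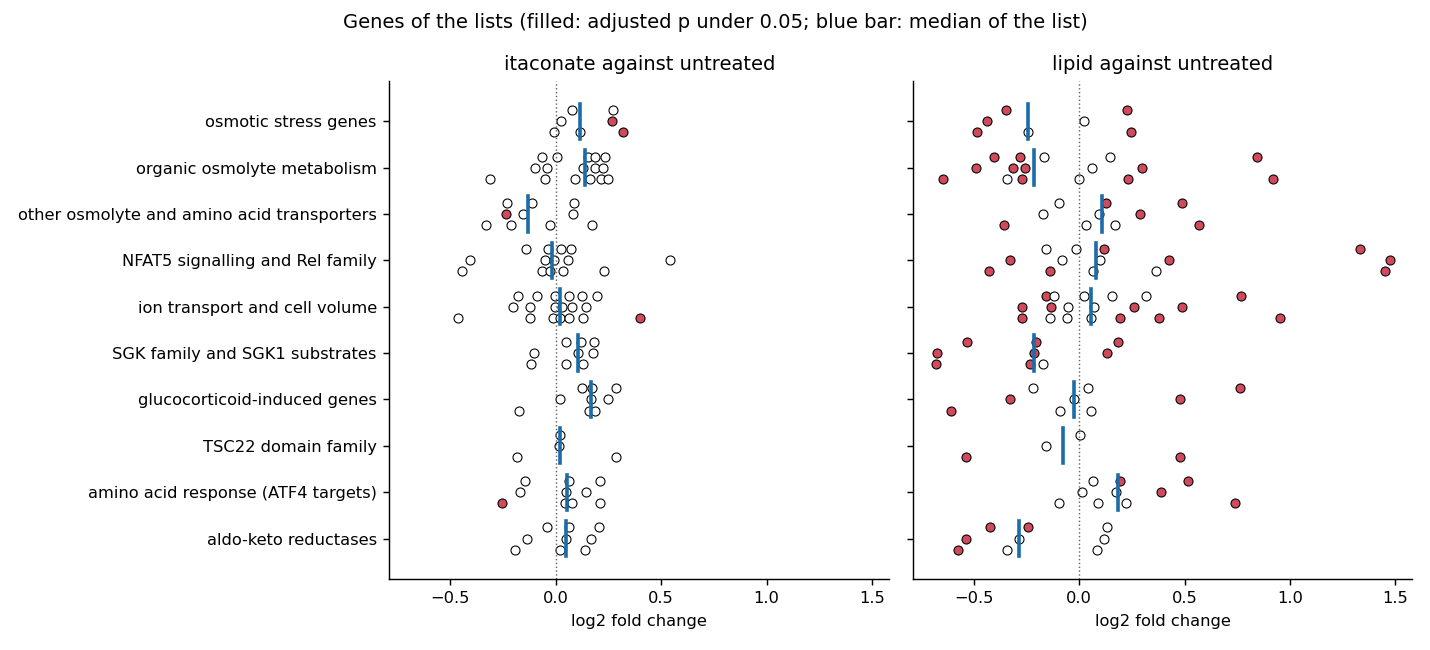
Log2 fold change (x axis) of each gene of the lists (rows) with itaconate (left) and lipid (right) against untreated cells, filled where the adjusted p was under 0.05, with the median of a list as a blue bar. The lipid changes spread from −0.68 to 1.47 with calls in both directions in most lists, and with itaconate a list holds at most 2 called genes.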

How the data were processed

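The authors trimmed reads with Cutadapt 1.18, aligned them to mm10 with STAR 2.7.0f and quantified genes with RSEM 1.3.1 after a stranded mRNA preparation (bcl2fastq 2.20 and Picard 2.18.26 were also used). The values deposited by the authors are expected counts per gene, without normalization, of which 5.41% were not whole because RSEM divides a read that fits several genes. Their later normalization and batch removal are not part of these values, and the batch is not named in the sources used here. The median library total was 27719372.

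After rounding, the quasi-likelihood test of edgeR 4.0.16 (R 4.3.3) was run with TMM scaling on genes whose mean over the libraries reached 1 CPM. Alternatives used limma 3.58.1 and DESeq2 1.42.0. CPM were computed over the genes tested, and log2 CPM had 0.5 added as prior count. Single values were also tested by the exact two-sided permutation test over 70 reassignments, whose smallest p is 0.0286. It reassigns libraries across letters and so ignores the pairing by letter. The script was tested on simulated data. Libraries of the same letter deviated together from their group means (24 correlations of 0.143 to 0.468, median 0.263, against a median of −0.114 for 72 pairs of other letters), so the letter was kept as a term. No pair of libraries was a duplicate (chi-square per gene 10.0 to 147). All gene identifiers matched GENCODE M21, the mouse release.

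The genes and lists were chosen with earlier results of these data known. Named are the 7 genes, genes that overlap or resemble them, the 3 genes closest to each by correlation (the first is given), and from each list at most 4 called genes with the largest change per comparison. *Csad*, *Ado*, *Cdo1*, *Rac1*, *Ccm2*, *Slc6a9*, *Slc12a2*, *Lrrc8d*, *Lrrc8a*, *Sgk3*, *Mapkap1*, *Pdpk1* and *Rictor* with lipid were named after their values were seen. Alternatives were no replicate block, RLE, filterByExpr, no filter, the 8 libraries of a comparison, DESeq2, limma-voom, each library left out, and, added after seeing the data, *Slc5a3* summed with *Mrps6*.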

Additional observations from a re-analysis of the deposited data

Results flagged for a closer look

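*Sgk1* in untreated hepatocytes was flagged because 1 library stood apart from the other 3. Replicate D was at 5.07 CPM and the others were between 6.21 and 6.37 CPM, so that the gap made up 0.875 of the range of the group. It was the only one flagged of 28 groups of 4 libraries (7 genes in 4 treatments), and chance alone flags about 5% of such groups. Without this library the fall of *Sgk1* with lipid was 0.44 on the log2 scale (edgeR adjusted p = 0.0532).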

How the results depend on the processing

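With no replicate block the genes called fell from 573 to 23 for itaconate, from 301 to 9 for lipid + itaconate against lipid and from 1 to 0 for the interaction, and of the 7 osmotic stress genes 0, 0 and 2 were called for itaconate, for lipid + itaconate against lipid, and for lipid. Fitting only the 8 libraries of a comparison called 1859 and 14 genes for the itaconate comparisons without and with lipid, and 0 of the 7 in the latter. With no filter 1091, 725 and 231 genes were called for itaconate without lipid, with lipid, and for the interaction. DESeq2 called 509 with lipid and 36 for the interaction, where RLE, filterByExpr and limma-voom called 2 each. Leaving out 1 library at a time called 149 to 394 genes for itaconate without lipid, 59 to 891 with lipid (0 to 1 of the 7) and 0 to 8 for the interaction.

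Signs turned for small differences. The interaction of *Slc6a12* was −0.0046 with RLE, −0.0075 with filterByExpr, −0.0064 with no filter and −0.0046 with DESeq2, and the itaconate difference of *Akr1b3* was 0.00086 with no filter and 0.0016 from log2 CPM. On leaving out libraries, *Akr1b3* ranged from −0.083 to 0.094 with itaconate, −0.24 to 0.022 with itaconate in lipid-treated cells, −0.12 to 0.13 with lipid and −0.23 to 0.028 for the interaction. *Slc6a12* ranged from −0.010 to 0.077, −0.032 to 0.078 and −0.058 to 0.052 for itaconate without lipid, with lipid and the interaction. With itaconate in lipid-treated cells *Nfat5* ranged from −0.14 to 0.052 and *Sgk1* from −0.042 to 0.25, and with lipid in itaconate-treated cells *Slc5a3* ranged from −0.029 to 0.065. The causes were not tested. *Sgk1* and *Akr1b3*, with the fewest counts, had the widest intervals of the 7. Levels in CPM and in CPM per kb gave the same order of groups, since the scales differ by a constant per gene.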
